A study of Mus musculus with 16 samples.

Results

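The genes described here encode the enzymes that remove superoxide and peroxides, make and recycle glutathione, or couple glutathione to reactive compounds, together with the regulators Nfe2l2, Nfe2l1 and Keap1. They were chosen by gene symbol, as the families Gsta, Gstm, Gstp, Gstt, Gsto, Gstk, Gstz, Mgst, Gpx, Prdx and Txnrd and a set of named single genes, a rule that uses no measured value. The arrays held 89 such probe sets for 51 genes, out of 45101 probe sets in all and 34958 probe sets with 1 gene symbol for 18195 genes. Several probe sets measured 24 of the 51 genes and 1 probe set measured each of the other 27.

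The study compared subcutaneous white adipose tissue (sWAT) with interscapular brown adipose tissue (BAT) of untreated LACA mice, labelled male, of 25 ± 3 g, fed standard chow until tissue collection. RNA was hybridized to 16 Affymetrix mouse genome arrays, 8 per tissue. Each tissue had 4 replicates with 2 arrays each, and the methods describe 4 mice from which both tissues were taken. The labels do not say which sWAT and BAT samples share a mouse, so p-values measure the spread between these samples. The labels name no transgene and no agent, and both groups were whole tissue, so fewer cells of a type and less RNA per cell cannot be told apart.

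Superoxide leaks from the respiratory chain, which is unusually active in brown adipocytes, where uncoupling protein lets respiration run as heat. Superoxide dismutases turn it into hydrogen peroxide, which glutathione peroxidases and the peroxiredoxins then reduce, drawing on glutathione or on thioredoxin. Glutathione transferases attach glutathione to electrophiles such as the aldehydes of oxidized lipids, and the transcription factor Nrf2, encoded by Nfe2l2 and held back by Keap1, switches on many of these genes under oxidative stress.

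All values are on the log2 scale after normalization by the authors, who had also centred each probe set on its median over all 16 arrays. A value of 0 is thus the middle of all arrays, and the data give differences between tissues but no level of one gene against another. Probe sets naming 1 gene were averaged to give the value of that gene. A value followed by ± and its standard error is the BAT mean less the sWAT mean on the log2 scale (n = 4 replicates in each tissue). A gene was called higher in a tissue at a Benjamini-Hochberg adjusted p under 0.05 in limma, fitted over all 18195 genes with the replicate number as a block. The number of arrays limits the precision.

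Markers of brown fat stood out in BAT. All 10 brown adipocyte genes were higher in BAT, and the mean over the list was 2.80 to 3.03 in the first 3 BAT replicates, 1.37 in the fourth, and -2.39 to -1.31 in sWAT. All 12 skeletal muscle fibre genes were also higher in BAT, with list means of 2.23 to 4.01 there and of -2.14 to -1.70 in sWAT. Of 9 genes of adipocytes in general, 3 were higher in BAT, 1, Retn, was higher in sWAT, and the others, Lep at -1.67 (adjusted p 0.0549) among them, did not pass. Centred values cannot show whether a marker was absent. The 8 B cell genes and 9 of 10 T cell genes were higher in sWAT. BAT replicates 1 to 3 went against the male label: their Xist values were 5.74 to 6.36, whereas BAT replicate 4 had -0.26 and sWAT had -0.27 to -0.11. The Y-linked Eif2s3y was -3.21 to -2.94 in the same 3 samples, 0.40 in BAT replicate 4 and -0.05 to 0.26 in sWAT. For replicates 1 to 3 the tissue and the sex that these genes give therefore cannot be told apart, and equally numbered samples there differ in them, which goes against a shared mouse behind the block. Without the block the 28 genes reported next as higher in BAT all passed. Low 5' signal marked 2 arrays, the first of sWAT replicate 3 and the second of BAT replicate 1, where 5' minus 3' signal of Gapdh and Actb was -4.79 and -3.56, against -1.23 to 0.46 elsewhere.

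The antioxidant and glutathione genes stood mostly on the BAT side. The test called 28 of the 51 genes (54.9%) higher in BAT, where it called 21.0% of all genes, and 1 gene, Prdx4, higher in sWAT, where it called 17.5% of all genes. The other 22 genes did not pass. The difference was positive for 45 of 51 genes (88.2%), against 62.7% of all genes, and its median was 0.57 for the 51 genes and 0.15 for all genes. Of the 51 genes, 17 passed at a fold of at least 2 higher in BAT, against 7.13% of all genes, and 0 at such a fold higher in sWAT, where the largest difference was that of Prdx4 at -0.48. The 4 BAT replicates all lay above the 4 sWAT replicates for 28 of 51 genes, which was so for 28.0% of all genes.

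Single probe sets gave a like split, with 51 of 89 higher in BAT (15.1% of all probe sets) and 3 higher in sWAT (17.3% of all probe sets). Averaged over the 51 genes, the value was 0.19, 0.43, 0.53 and 0.41 in BAT replicates 1 to 4 and -0.33, -0.20, -0.45 and -0.37 in the sWAT replicates. The lowest BAT mean belonged to replicate 1 and the lowest sWAT mean to replicate 3, the replicates that hold the arrays of low 5' signal. Without these 2 arrays 34 of the 51 genes were called higher in BAT, as were 28.7% of all genes. Set against the 4 sWAT replicates without a block, BAT replicate 4 alone, which had low Xist, gave 16 of the 51 genes higher in BAT, against 10.7% of all genes, on the assumption that the lone sample varies like the others. In pair 4 the difference was positive for 46 of the 51 genes, against 63.0% of all genes. In the methods' paired test 11 of the 28 genes passed, which were Sod2, Gsta4, Gsto1, Gss, Txnrd2, Txn2, Prdx3, Gstk1, Prdx2, Gclm and Sod3. That test called 10.1% of all genes higher in BAT. With each replicate left out in turn, 15 of the 28 genes passed in all 4 fits, each of which called 12.8% to 20.3% of all genes. The other 13 lost the call in at least 1 fit, namely Gpx2 and Gstm6 in all 4, Gpx4 without replicate 2, 3 or 4, Gsto2 without 3 or 4, Gstt4 without 1 or 3, Gstm7 without 1 or 2, Gsta3 and Gpx8 without 1, Gstm1, Nqo1 and Sod3 without 2, Gpx3 without 3 and Gstt2 without 4. Muscle fibre and lymphocyte genes moved with tissue throughout, and their part in these differences was not tested.

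**Figure D1:**
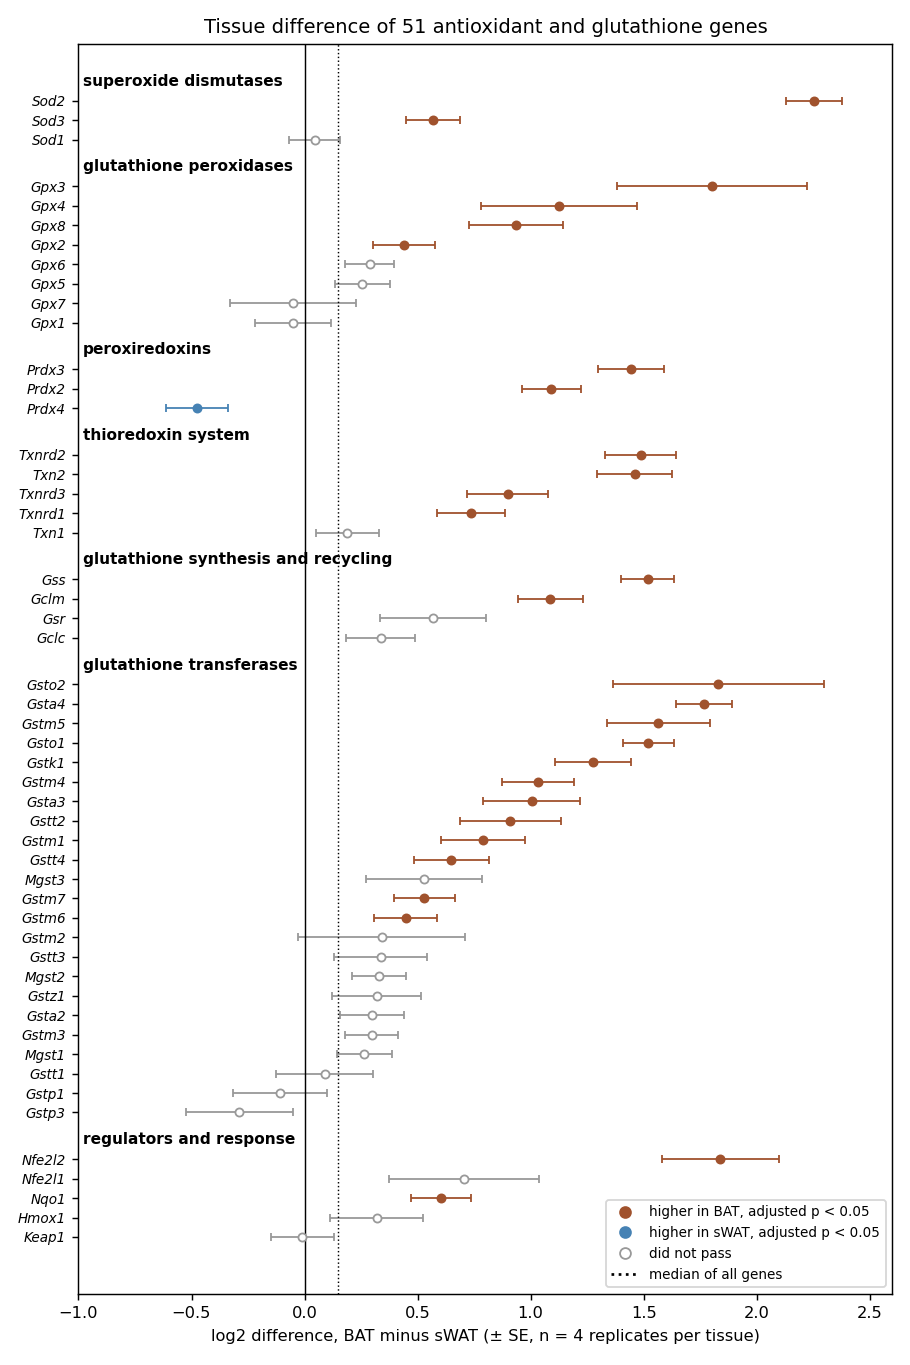
Log2 difference, BAT minus sWAT, of the 51 genes grouped by role, as points with the standard error at n = 4 replicates per tissue. Filled points passed at an adjusted p under 0.05, open points did not, and the dotted line marks the median of all genes at 0.15. Sod2 lies farthest to the right at 2.25, and Prdx4 at -0.48 is the filled point on the sWAT side.

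The 3 superoxide dismutases, which act in different compartments, had different tissue differences, and 2 of them passed. Sod2, the manganese enzyme of the mitochondrial matrix, had the largest difference of the 51 genes at 2.25 ± 0.12 (4.77-fold, adjusted p 5.21e-05). Its values were 1.32, 1.14, 1.05 and 0.73 in BAT replicates 1 to 4 and -1.17, -1.10, -1.02 and -1.48 in sWAT replicates 1 to 4. The groups lay far apart, and BAT replicate 4 was the lowest of its tissue. All 4 probe sets of Sod2 passed, with differences of 1.58 to 2.81.

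Sod1, the copper and zinc enzyme of the cytosol, stood at 0.05, 0.17, 0.01 and -0.02 in BAT and at -0.02, 0.05, 0.12 and -0.12 in sWAT. These groups overlapped, and the difference of 0.04 ± 0.11 did not pass (adjusted p 0.77). Its 5 probe sets ran from -0.42 to 0.24, and 1 of them passed on the sWAT side at -0.42 ± 0.13. Sod3, the secreted form bound to the extracellular matrix, differed by 0.57 ± 0.12 (adjusted p 0.00964). It stood at 0.13, 0.57, 0.36 and 0.29 in BAT and at -0.58, -0.07, -0.21 and -0.06 in sWAT, without overlap. The Sod3 call was also lost with the second arrays alone, with 3' Gapdh and Actb as the scale (adjusted p 0.194) and with BAT replicate 4 alone (0.16).

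The difference of Sod2 exceeded that of Sod1 by 2.21 ± 0.07, and by 2.12 to 2.42 in the 4 pairs. In this paragraph ± is the standard error over the 4 pairs of equally numbered replicates and does not come from limma. The exact permutation test below makes no use of the pairs. The same comparison was made for 3 further couples of a mitochondrial and a cytosolic form, after their values had been seen. For thioredoxin, the mitochondrial Txn2 exceeded the cytosolic Txn1 by 1.27 ± 0.32, with 4 of 4 pairs positive. For thioredoxin reductase, the mitochondrial Txnrd2 exceeded the cytosolic Txnrd1 by 0.75 ± 0.29, with 3 of 4 pairs positive. For the peroxiredoxins, Prdx3 exceeded Prdx2 by 0.35 ± 0.20, with 3 of 4 pairs positive. Sod and Txn had the smallest p that a two-sided exact permutation test of 4 against 4 samples allows, 0.0286, and the reductases had p = 0.0571 and the peroxiredoxins p = 0.114. Adjusted over the 4 couples, these exact p-values were 0.0571, 0.0571, 0.0762 and 0.114, so no couple passed the correction. Sod and Txn already had the smallest possible p, so a larger difference could not have made either of them pass.

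Glutathione peroxidases reduce peroxides with glutathione, and 4 of the 8 measured passed, all higher in BAT. Gpx3, the secreted enzyme of plasma, had the largest difference of the family at 1.80 ± 0.42 (3.49-fold, adjusted p 0.0143). It stood at -0.73, 0.98, 1.45 and 1.95 in BAT replicates 1 to 4 and at -0.72, -1.10, -1.08 and -0.68 in sWAT. BAT replicate 1 lay among the sWAT values, and the call was also lost with the second arrays alone. Gpx4, which reduces lipid hydroperoxides within membranes, differed by 1.12 ± 0.34 (adjusted p 0.0393). The low values of this gene were -1.66 in sWAT replicate 3 and -0.15 in BAT replicate 1, both with an array of low 5' signal, and 1 of its 2 probe sets passed.

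Gpx8, a peroxidase of the endoplasmic reticulum, differed by 0.94 ± 0.21, and Gpx2, best known from the gut epithelium, by 0.44 ± 0.14 (adjusted p 0.0402). Gpx1, the widespread cytosolic enzyme that is also found in mitochondria, did not pass, at -0.05 ± 0.17. It stood between -0.40 and 0.21 in BAT and between -0.31 and 0.18 in sWAT, so the groups overlapped. Gpx5 at 0.26 and Gpx6 at 0.29, forms of the epididymis and the olfactory epithelium, did not pass either. Gpx7, of the endoplasmic reticulum, had the widest BAT range among the peroxidases that did not pass, from -0.71 in replicate 1 to 0.65 in replicate 4, with a difference of -0.05 ± 0.28.

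Peroxiredoxins are abundant peroxidases that are recharged by thioredoxin, and the 3 measured went both ways. Prdx1, Prdx5 and Prdx6 were not analysed here. Prdx3, the mitochondrial form, stood at 0.77, 0.63, 0.74 and 0.35 in BAT and at -1.12, -0.61, -0.65 and -0.93 in sWAT. The groups did not overlap, and the difference was 1.45 ± 0.15 (2.72-fold, adjusted p 0.000426). Prdx2, a cytosolic form that is also abundant in red blood cells, differed by 1.09 ± 0.13, with 2 of 2 probe sets passing. Of the 4 red blood cell markers 1 passed on the BAT side, with list means of up to 0.49 in BAT and of -0.47 to 0.17 in sWAT, and the part of blood in the Prdx2 value was not tested.

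Prdx4, the form of the endoplasmic reticulum that is abundant in cells that secrete protein, was the exception. It stood at 0.40, 0.17, 0.50 and -0.05 in sWAT and at -0.26, -0.15, -0.22 and -0.24 in BAT, a difference of -0.48 ± 0.14 (adjusted p 0.0319). All sWAT values lay above all BAT values, although sWAT replicate 4 came close to them. Its 4 probe sets were all negative, from -0.71 to -0.19, and 2 passed. The call was lost when replicate 1, 2 or 3 was left out, with adjusted p of 0.102, 0.0818 and 0.0802. B cell genes moved the same way, with list means of 1.92 to 2.61 in sWAT and of -2.32 to -1.79 in BAT, and their part in the Prdx4 value was not tested.

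**Figure D2:**
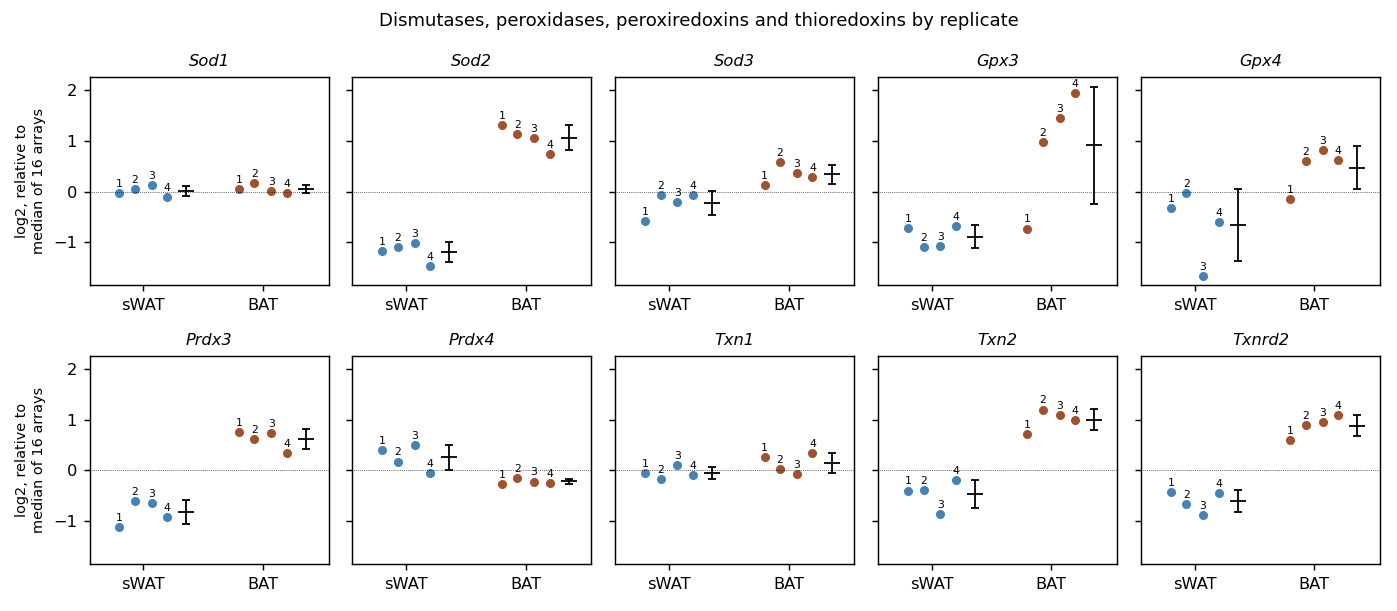
Log2 values of 10 genes by tissue and replicate, with 0 as the median over all 16 arrays. Each point is 1 replicate, marked with its number, and each bar beside them shows the group mean with its SD. Sod2, Prdx3, Txn2 and Txnrd2 separate the tissues, Sod1 and Txn1 overlap, and Prdx4 is higher in sWAT.

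The thioredoxin system supplies electrons from NADPH to peroxiredoxins, and 4 of its 5 genes were higher in BAT. Txnrd2, the mitochondrial reductase, stood at 0.59, 0.89, 0.96 and 1.09 in BAT and at -0.42, -0.67, -0.88 and -0.45 in sWAT. Its difference was 1.49 ± 0.16 (2.80-fold, adjusted p 0.00049), and all 4 probe sets passed at 1.14 to 1.99. Txn2, the thioredoxin of the same compartment, differed by 1.46 ± 0.17, with 3 probe sets between 1.44 and 1.49. Both genes were without overlap between the tissues.

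Txnrd3, a reductase best known from the testis, differed by 0.90 ± 0.18, and Txnrd1, the cytosolic reductase, by 0.74 ± 0.15. Txnrd1 fell off in BAT replicate 4, at 0.15, against 0.41 to 0.74 in the other BAT replicates, and its sWAT values lay between -0.30 and -0.16. Txn1, the cytosolic thioredoxin, stood at 0.26, 0.02, -0.07 and 0.35 in BAT and at -0.05, -0.16, 0.10 and -0.09 in sWAT. Its difference of 0.19 ± 0.14 did not pass (adjusted p 0.299), and its 2 probe sets lay on either side of 0.

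By compartment, 6 of 8 enzymes listed as mitochondrial passed, all higher in BAT by at least 2-fold, against 7.13% of all genes. The median difference was 1.36 over the 8 and 0.15 over all genes. The 6 enzymes were Sod2, Prdx3, Txn2, Txnrd2, Gpx4 and Gstk1, while Gpx1 and Gsr did not pass. Of the 6, Gpx4 lost its call without replicate 2, 3 or 4. Both those that passed and those that did not include enzymes also found outside mitochondria. Of 5 secreted or secretory enzymes, Gpx3 and Sod3 were higher in BAT and Prdx4 was higher in sWAT. Of the 38 genes on neither list, 20 were higher in BAT, against 21.0% of all genes, with a median of 0.53 over the 38. Mitochondrial members thus had the larger median, which was not tested against the rest.

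Glutathione is built by glutamate cysteine ligase and glutathione synthetase, and 2 of the 4 genes of synthesis and recycling passed. Gss, the synthetase, separated the tissues evenly, at 0.85, 0.80, 1.06 and 0.78 in BAT and at -0.52, -0.69, -0.64 and -0.73 in sWAT. Its difference was 1.52 ± 0.12 (2.86-fold, adjusted p 0.000151), with 2 probe sets at 1.46 and 1.57. Gclm, the modifier subunit of the ligase, stood at 0.83, 0.83, 0.39 and 0.14 in BAT and at -0.31, -0.64, -0.53 and -0.69 in sWAT. It differed by 1.09 ± 0.14 (adjusted p 0.00128) without overlap, although BAT replicates 3 and 4 were lower than 1 and 2.

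The catalytic subunit Gclc, which carries the rate-limiting step, did not pass at 0.34 ± 0.15 (adjusted p 0.12). It stood at 0.56, 0.40, 0.19 and -0.30 in BAT and at 0.04, -0.30, 0.06 and -0.30 in sWAT, so that BAT replicate 4 equalled the lowest sWAT values. Its 2 probe sets disagreed, at 0.03 and 0.65, and the second passed. Gsr, the reductase that regenerates glutathione with NADPH, stood at -0.03, 0.36, 0.47 and 0.19 in BAT and at -0.16, -0.07, -1.02 and -0.03 in sWAT. Its difference of 0.57 ± 0.23 did not pass (adjusted p 0.094). Without the 2 arrays of low 5' signal, 1 of which belongs to that lowest sWAT replicate, it was 0.50 and passed (adjusted p 0.0184).

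Glutathione transferases formed the largest group, and 12 of 23 were higher in BAT, 0 were higher in sWAT and 11 did not pass, with a median of 0.53. The transferases that passed were all soluble enzymes: 12 of the 20 soluble and 0 of the 3 membrane-bound forms, Mgst1, Mgst2 and Mgst3, at 0.26 to 0.53. At an unadjusted p under 0.05 limma called 1 of these 3, Mgst2, and 0 of the 23 on the sWAT side. At an adjusted p under 0.05 the methods' paired test called 0 of the 3 membrane-bound forms. Among all 23 transferases that test called 3 on the BAT side and 0 on the sWAT side. Single probe sets of Mgst1 at 0.48 (adjusted p 0.0323) and Mgst3 at 0.64 (adjusted p 0.0162) did pass on the BAT side. Soluble and membrane-bound forms were not tested against each other. Within the soluble enzymes, 2 of 3 alpha, 5 of 7 mu, 2 of 4 theta, 2 of 2 omega and 1 of 1 kappa genes were higher in BAT, and neither pi gene was. Genes of these classes are close copies of each other, and some probe sets of the kind marked as cross-hybridizing may read more than 1 of them. Without those probe sets 27 of the 28 genes kept their call, and Gpx4 lost it.

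Gsta4, which clears 4-hydroxynonenal, an aldehyde released from oxidized lipids, had the largest difference of the alpha class. It stood at 0.82, 0.96, 0.92 and 0.76 in BAT and at -1.08, -0.65, -0.70 and -1.18 in sWAT, a difference of 1.77 ± 0.12 (3.40-fold, adjusted p 0.000109). Gsta3 differed by 1.004 ± 0.21, with BAT values from near 0 in replicate 4 to 1.41 in replicate 3. Gsta2 did not pass, at 0.30.

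Both omega transferases, which reduce dehydroascorbate and have thioltransferase activity, were higher in BAT. Gsto1 stood at 0.83, 0.85, 0.74 and 0.67 in BAT and at -0.72, -0.55, -0.91 and -0.82 in sWAT, a difference of 1.52 ± 0.11 (adjusted p 0.000136). Gsto2 had a larger and less certain difference, 1.83 ± 0.47 (adjusted p 0.0203). It stood at 0.51, 0.72, 1.84 and 2.03 in BAT and at -0.08, 0.01, -1.41 and -0.75 in sWAT, so both tissues were spread widely without overlapping. Its call was lost without replicate 3 (adjusted p 0.0547), without replicate 4 (0.0578) and with the second arrays alone.

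Among the mu transferases, Gstm5 stood at 0.55, 1.05, 1.22 and 1.47 in BAT and at -0.41, -0.06, -0.91 and -0.59 in sWAT, a difference of 1.57 ± 0.23 (2.96-fold, adjusted p 0.00201). The methods' paired test gave it an adjusted p of 0.0605. Gstm4 at 1.03, Gstm1 at 0.79, Gstm7 at 0.53 and Gstm6 at 0.45 were also higher in BAT. Gstm2 at 0.34 ± 0.37 and Gstm3 at 0.30 ± 0.12 did not pass. Gstk1, the transferase of mitochondria and peroxisomes, differed by 1.27 ± 0.17.

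The theta genes divided, with Gstt2 at 0.91 ± 0.22 and Gstt4 at 0.65 ± 0.17 higher in BAT. Gstt1 did not pass at 0.09 ± 0.21, and stood at -0.28, -0.26, 0.31 and 0.61 in BAT against -0.02, 0.03, 0.34 and -0.31 in sWAT. Its direction turned to -0.19 without replicate 4. The pi genes lay on the other side of 0 without passing, Gstp1 at -0.11 ± 0.21 and Gstp3 at -0.29 ± 0.24. Gstz1, an enzyme of tyrosine breakdown, did not pass at 0.32 ± 0.20.

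The regulators did not move together. Nfe2l2, which encodes Nrf2, stood at 1.93, 1.91, 1.87 and 0.06 in BAT replicates 1 to 4 and at -0.33, -0.39, -0.13 and -0.73 in sWAT. BAT replicates 1 to 3 were nearly equal, while BAT replicate 4, the one with low Xist and the lowest brown adipocyte markers, was close to the sWAT values. The difference was 1.84 ± 0.26 (3.58-fold, adjusted p 0.00171), and it was 0.78 in pair 4. The call was lost in the methods' paired test (adjusted p 0.0597) and with BAT replicate 4 alone against sWAT (0.45, adjusted p 0.215).

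The 2 probe sets of Nfe2l2 differed in size. One gave 3.01 ± 0.41, with 3.14, 2.73, 3.34 and 0.20 in BAT replicates 1 to 4. The other gave 0.66 ± 0.19, with 0.72, 1.09, 0.41 and -0.09 in the same replicates. Both passed and both were lowest in BAT replicate 4.

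Keap1, the adaptor that marks Nrf2 for destruction, did not pass, at -0.01 ± 0.14 (adjusted p 0.959), and stood at -0.33, -0.32, 0.11 and 0.24 in BAT and at -0.31, -0.04, -0.25 and 0.32 in sWAT. Nfe2l1, the related factor Nrf1 of the endoplasmic reticulum, did not pass at 0.70 ± 0.33 (adjusted p 0.132). It was lowest in sWAT replicate 3 at -1.30 and in BAT replicate 1 at -0.45, the replicates with arrays of low 5' signal. Without these arrays it differed by 0.75 and passed (adjusted p 0.0126).

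Of the classical Nrf2 targets outside the glutathione families, Nqo1, a quinone reductase, was higher in BAT and Hmox1, which breaks down heme, did not pass. Nqo1 stood at 0.47, 0.89, -0.02 and 0.19 in BAT and at -0.23, 0.00, -0.50 and -0.15 in sWAT, a difference of 0.60 ± 0.13 (adjusted p 0.0119) with overlapping groups. The Nqo1 call was also lost with 3' Gapdh and Actb as the scale (adjusted p 0.159) and in the methods' paired test (0.0621). On that scale its difference was 0.63 ± 0.31, and Sod2, Nfe2l2 and Gclm had the same standard error. Against sWAT, BAT replicate 4 alone gave a smaller Nqo1 difference of 0.41. Hmox1 stood at -0.38, 0.50, 0.37 and 0.04 in BAT and at -0.33, -0.43, -0.22 and 0.23 in sWAT, a difference of 0.32 ± 0.20 (adjusted p 0.242). Hmox1 is also a macrophage gene, and of 12 macrophage markers 7 were higher in sWAT and 1, Cd163 at 2.11, was higher in BAT, a part that was not tested.

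**Figure D3:**
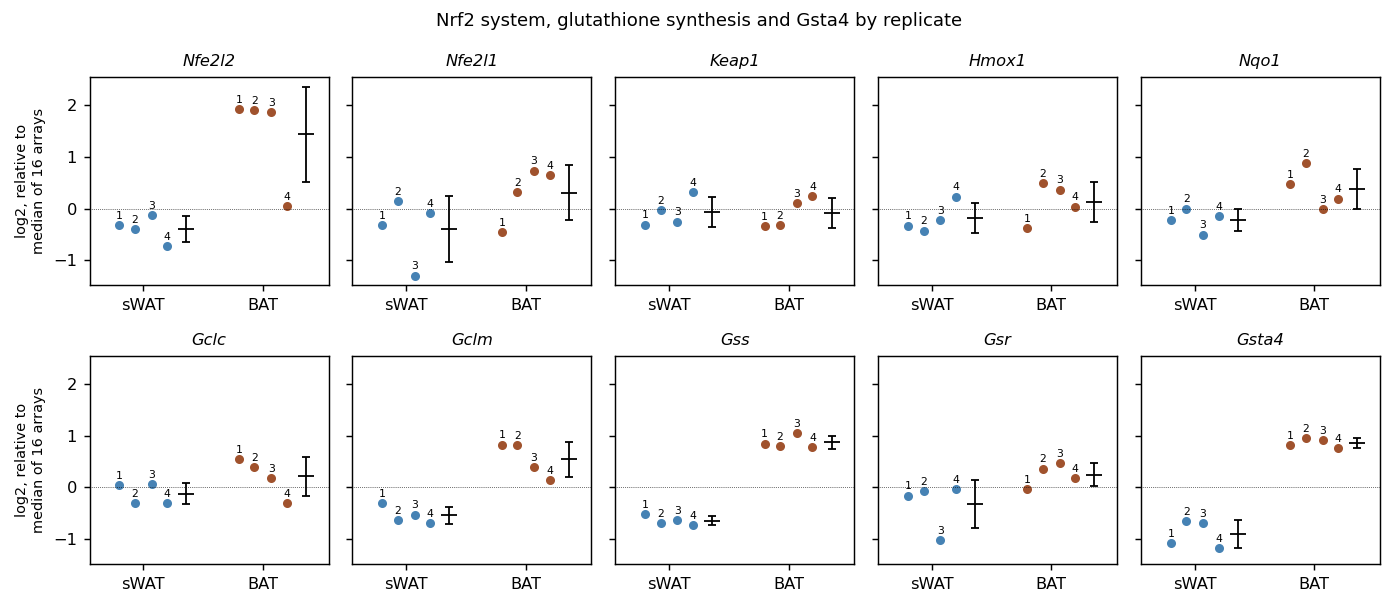
Log2 values of the Nrf2 system, of glutathione synthesis and recycling and of Gsta4 by tissue and replicate, with 0 as the median over all 16 arrays. Each point is 1 replicate, marked with its number, and each bar shows the group mean with its SD. BAT replicate 4 stands at 0.06 for Nfe2l2 against 1.87 to 1.93 in the other BAT replicates, while Gss and Gsta4 separate the tissues in all 4.

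Nrf2 binds the antioxidant response element, whose core reads TGACNNNGC, or GCNNNGTCA where it lies on the other strand. These letters were searched on both strands in the RefSeq promoter windows of GRCm38.p6, which run from 250 bases before to 50 bases after each transcript start. Windows were found for 45 of the 51 genes, and 8 of them (17.8%) held the core, against 14.0% of 27025 genes in all. Of the genes higher in BAT 6 of 25 held it, and of those that did not pass 2 of 19. A match is a run of letters and no measured binding site, and elements farther from the start were not searched. The matched stretches are shown 5' to 3' on the strand of the gene with the core in capitals, since they let the genes with a core be set beside their tissue differences.
Nfe2l2, chr2:75704875-75704913, minus strand: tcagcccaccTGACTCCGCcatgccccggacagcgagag
Gstm5, chr3:107895792-107895840, plus strand: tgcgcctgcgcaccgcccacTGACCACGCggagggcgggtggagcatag
Gclm, chr3:122245403-122245451, plus strand: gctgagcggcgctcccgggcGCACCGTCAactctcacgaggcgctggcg
Gsta3, chr1:21240444-21240492, plus strand: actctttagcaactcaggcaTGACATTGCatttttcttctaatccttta
Txnrd1, chr10:82859094-82859142, plus strand: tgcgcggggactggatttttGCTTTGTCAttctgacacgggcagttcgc
Gstm7, chr3:107931715-107931763, minus strand: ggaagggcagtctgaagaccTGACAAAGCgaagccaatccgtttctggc
Mgst1, chr6:138140451-138140499, plus strand: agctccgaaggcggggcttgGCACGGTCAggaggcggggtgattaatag
Sod1, chr16:90220686-90220734, plus strand: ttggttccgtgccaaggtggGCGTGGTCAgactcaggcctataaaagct
The 2 genes with the core that did not pass were Sod1 and Mgst1, while Nqo1 and Gss held none in these windows. The stretch of Nfe2l2 itself belongs to the gene with the second largest difference, and that of Gstm5 lies nearest to a start among the genes higher in BAT, with its core beginning 42 bases before it.

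**Figure D4:**
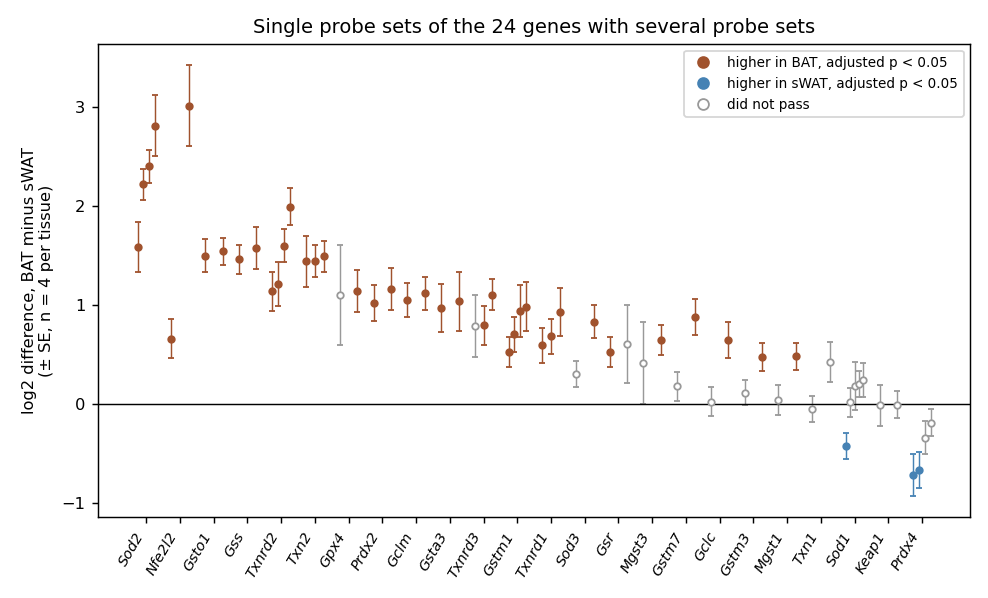
Log2 difference, BAT minus sWAT, of the single probe sets of the 24 genes measured by several, with the standard error at n = 4 per tissue, ordered by the difference of the gene. Filled points passed at an adjusted p under 0.05. The probe sets of Gsto1, Gss and Txn2 lie close together, those of Nfe2l2 lie at 0.66 and 3.01, and 2 of the 4 Prdx4 probe sets passed on the sWAT side.

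The other genes of redox metabolism were followed in 6 lists. For comparison, 21.0% of all genes were higher in BAT and 17.5% were higher in sWAT, with a median of 0.15. Of 33 further redox enzymes, 14 (42.4%) were higher in BAT, 3 were higher in sWAT and 16 did not pass, with a median of 0.47. The metal-binding metallothioneins Mt2 at 2.17 ± 0.23 and Mt1 at 1.45 ± 0.16 were higher in BAT, and so were the methionine sulfoxide reductases Msrb2 at 1.92 and Msra at 1.60 and catalase, Cat, at 0.71 ± 0.11. Srxn1, which repairs overoxidized peroxiredoxins, differed by 0.98 ± 0.14. The sestrins Sesn3 at -2.31 ± 0.15 and Sesn1 at -1.17 ± 0.15 were higher in sWAT.

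NADPH feeds both glutathione and thioredoxin reductase. The 14 genes of a list drawn up around its supply went both ways, 8 (57.1%) higher in BAT and 4 higher in sWAT. The list was not limited to enzymes that make NADPH themselves. The pentose phosphate genes Tkt at 1.65, Pgls at 1.32, Pgd at 1.18 and Taldo1 at 0.98, the malic enzyme Me1 at 1.30 and the isocitrate dehydrogenases Idh1 at 0.91 and Idh2 at 0.93 were higher in BAT. In pair 4 Pgd stood at -0.14 and Me1 at 0.29, and the tissues overlapped for both. The other genes of that row were positive in pair 4, without overlap. The mitochondrial folate enzymes Mthfd2 at -2.52 ± 0.15 and Mthfd1l at -1.97 ± 0.18 were higher in sWAT, as were the mitochondrial malic enzyme Me2 at -1.59 and the transhydrogenase Nnt at -0.59. The mitochondrial genes of this list, among them Idh2 and Nnt, thus did not share 1 direction.

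Of 19 genes of glutathione transport and breakdown, 6 (31.6%) were higher in BAT, against 21.0% of all genes. In sWAT 2 were higher, and the median was 0.09. Oplah, the oxoprolinase that returns glutamate from the glutathione cycle, differed by 2.19 ± 0.37, and Slc25a39, which carries glutathione into mitochondria, by 1.41 ± 0.13. The cystine importer genes Slc7a11 at -0.49 (adjusted p 0.0666) and Slc3a2 at -0.75 (0.0509) did not pass. Of 13 partners of Nrf2, 4 (30.8%) passed in each direction. They ran from Ppargc1a, a coactivator of mitochondrial genes, at 3.24 to Bach2, a B cell repressor, at -2.44. The oxidase genes of phagocytes and B cells, Ncf4 at -2.83, Cyba at -2.17, Ncf1 at -1.82 and Cybb at -1.76, were higher in sWAT, and the mitochondrial amine oxidase Maob at 2.02 was higher in BAT. These were among 11 genes of oxidant sources, where 3 (27.3%) passed on the BAT side and 4 on the sWAT side.

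**Figure D5:**
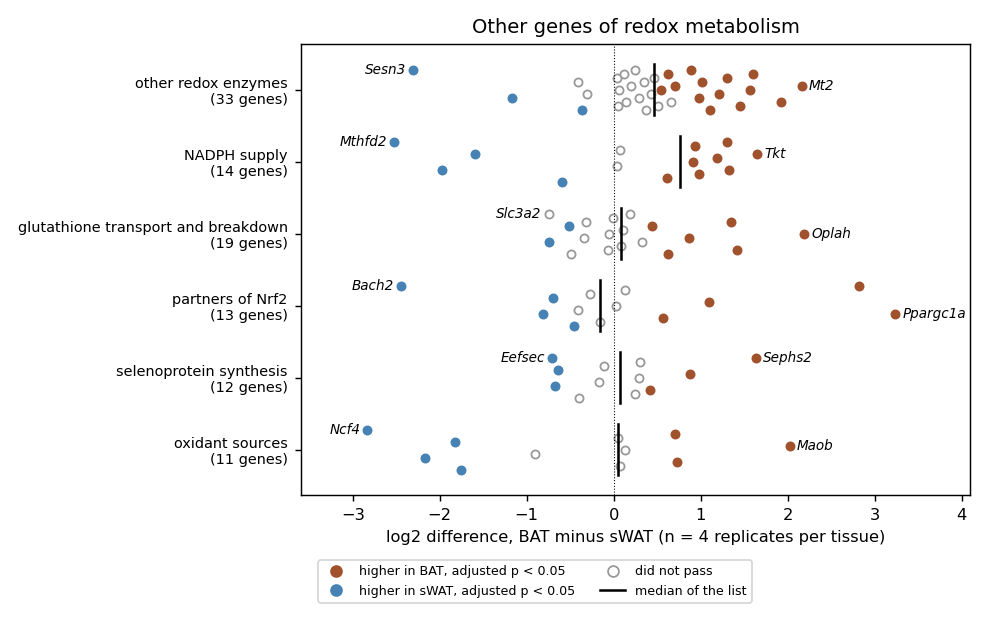
Log2 differences, BAT minus sWAT, of the genes of 6 lists around the antioxidant enzymes, with n = 4 replicates per tissue. Each point is a gene, filled where it passed at an adjusted p under 0.05 and spread vertically for legibility alone, black bars are list medians, and the genes with the lowest and highest difference are named. The medians lie between -0.16 for partners of Nrf2 and 0.76 for NADPH supply.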

How the data were processed

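Total RNA of sWAT and BAT was measured on 16 arrays. RMA and quantile normalization were run by the authors in GeneSpring with a baseline shift to the median over all samples, so the deposited values are log2 values centred on each probe set's own median. Levels and a filter on dim probe sets are therefore not available from them. After averaging both arrays of a replicate, limma 3.58.1 (lmFit, eBayes; R 4.3.3) tested the tissue difference. Its model held the replicate number as a block, because the methods used a paired test. Gene symbols came from the platform annotation, in which 932 carried several symbols and 9211 were not listed. For this reason Prdx1 (5 probe sets that also name a predicted gene) and Gsta1 are not reported here, nor are Prdx5, Prdx6 and Gstp2, for want of a probe set with 1 symbol. All sample columns were used (0 left out). The authors' own table of comparisons was not used. The members and lists were chosen with earlier results of these data known.

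The replicate number comes from the sample titles. The deviations of equally numbered samples from their group means correlated at -0.23, 0.064, -0.348 and 0.231, taken over all probe sets.

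Values by replicate are given for the 7 genes with the largest difference that passed with 4 of 4 pairs in 1 direction, the genes with the largest and smallest difference of each role, and a fixed set of regulators and glutathione genes. Those for Gpx4, Gpx1 and Txnrd1 were added after their values were seen. The analysis was repeated without the block, on first or on second arrays only, with each replicate left out, with centring or scaling, by the methods' paired test, with the median over probe sets and with x and s suffixed probe sets removed. The fit was tested on simulated data. Promoters came from RefSeq, and figures were drawn with matplotlib 3.10.9.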

Additional observations from a re-analysis of the deposited data

Results flagged for a closer look

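Dixon's ratio was applied to the 4 replicates of each tissue for 23 genes, 46 groups in all, and marked 2 of them, where chance marks about 1 in 20 groups. Nfe2l2 in BAT replicate 4 stood at 0.0554, far below the other BAT replicates at 1.87 to 1.93. The same replicate had low Xist and a brown adipocyte list mean of 1.37 against 2.80 to 3.03 in the others. Gsr in sWAT replicate 3 stood at -1.02, against -0.16 to -0.03 in the other sWAT replicates. One array of that replicate had low 5' signal. The lower of the 2 Gsr probe sets there stood at -1.63 and the other at -0.41. The part of these features in either value was not tested.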

How the results depend on the processing

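Centred values give no signal over background, so weak probe sets could not be told from bright ones. The count of genes higher in BAT, 28, lay between 20 and 34 under the other ways of processing, apart from the methods' paired test, which gave 12, and BAT replicate 4 alone against sWAT, chosen after seeing the data, which gave 16. The count without the replicate block was 31. With 3' Gapdh and Actb as the scale, Sod2, Nfe2l2, Gclm and Nqo1 all had a standard error of 0.313. A call lost on that scale thus need not reflect the spread of the gene itself. Leaving out each replicate in turn gave 21 to 23, against 12.8% to 20.3% of all genes. The 1 gene higher in sWAT, Prdx4, became 0 with the second arrays alone, with 3' Gapdh and Actb as the scale and in the paired test, and 0 to 1 when a replicate was left out. With BAT replicate 4 alone Prdx4 also lost its call (adjusted p 0.175), and the 1 gene higher in sWAT was Gstp3. The 51 probe sets higher in BAT became 33 with the second arrays alone, 13 in the paired test, 30 with BAT replicate 4 alone and 33 to 43 when a replicate was left out. The 3 probe sets higher in sWAT became 0 with that scale and in the paired test, 1 with BAT replicate 4 alone and 0 to 2 when a replicate was left out. With the first arrays alone Prdx3 exceeded Prdx2 by -0.048. The causes were not tested.

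None of the 29 genes that passed changed sign under any of these ways of processing. Gpx1 was not followed through these ways of processing, and its differences in the 4 pairs ran from -0.35 to 0.52. Of the other genes described by replicate that did not pass, these changed sign. With the first arrays alone Sod1 was -0.0229 and Keap1 0.41, with the second arrays alone Nfe2l1 was -0.12 and Gpx7 0.026, and with each array centred Sod1 was -0.0167. Without the 2 arrays of low 5' signal Keap1 was 0.00 and Gpx7 0.0136, and with the 3' scale Keap1 was 0.0149. With BAT replicate 4 alone Gclc was -0.17, Sod1 -0.0301, Keap1 0.30 and Gpx7 0.59. In pair 4 alone Hmox1 was -0.19 and Gpx7 0.94. Leaving out a replicate gave -0.19 to 0.21 for Gstt1, -0.132 to 0.083 for Keap1 and -0.38 to 0.17 for Gpx7. Sod2, Gsta4, Gsto1, Gss, Txnrd2 and Prdx3 passed under all alternatives with a test, at adjusted p of at most 0.0311. Txn2, Gstk1 and Prdx2 also lost their call under none of them.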

Other observations

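Among the products of the 51 genes, the peroxidases Gpx1, Gpx2, Gpx3 and Gpx4 and the thioredoxin reductases Txnrd1, Txnrd2 and Txnrd3 contain selenocysteine. This grouping was made after their values were seen and took in no gene of the other lists. Of these 7 genes 6 were higher in BAT, with a median difference of 0.90, and Gpx1 did not pass. With each replicate left out in turn, the call was lost in 4 fits for Gpx2, in 3 for Gpx4 and in 1 for Gpx3. Of the 6 genes, Txnrd2 alone passed the methods' paired test. Genes of selenocysteine synthesis and insertion and of selenium carriage and uptake went both ways. Of 12 such genes 3 (25.0%) were higher in BAT, 3 were higher in sWAT and 6 did not pass, with a median of 0.07. Over all genes 21.0% were higher in BAT and 17.5% were higher in sWAT, with a median of 0.15. Sephs2, which makes the selenium donor, differed by 1.64 ± 0.11, and Pstk, which charges the selenocysteine tRNA with phosphate, by 0.88 ± 0.12. The elongation factor gene Eefsec at -0.71 and the selenocysteine lyase gene Scly at -0.64 were higher in sWAT, as was the selenium uptake receptor gene Lrp8 at -0.68.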
